A study of Mus musculus with 8 samples.

Results

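The CXC chemokine ligands described here were Cxcl1, Cxcl2, Cxcl3, Cxcl9, Cxcl10, Cxcl12, Cxcl13, Cxcl14 and Cxcl16, taken by gene symbol from the gene expression tables of mice on a high-fat diet (HFD) and on normal chow (ND). They were 9 of the 17740 genes listed for HFD and 9 of the 16436 listed for ND. The study asked how macrophages that stay attached to adipocytes differ from the free macrophages of the same fat depot. Epididymal white adipose tissue (eWAT) was digested with collagenase, and adhesion-related macrophages (ARM) were collected from the floating adipocyte layer after its adipocytes had been broken by shaking with beads. Macrophages of the stromal vascular fraction (SM, titled NARM in the sample labels) came from the pellet, and both populations were sorted for CD45, CD11b and F4/80 by flow cytometry before RNA sequencing. All mice were male and wild type on a C57BL/6J background and entered their diet at 6 weeks of age. HFD ARM and HFD SM came from mice fed the high-fat diet for 8 weeks, with 6 mice pooled for each library. ND ARM and ND SM came from mice on chow, with 10 mice pooled for each library and no duration given in the labels. Each of the 4 groups had 2 libraries, so every p-value measures the spread between pooled libraries and not between single mice.

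Summed over all genes, the libraries of HFD ARM held 18415520 and 18288775 expected counts, and those of HFD SM held 19040133 and 18992793. The sums came to 16319038 and 14508824 in ND ARM and to 14861075 and 15833762 in ND SM, so depth differed little between ARM and SM within a diet. The 9 ligands together took 0.548% and 0.506% of the counts in HFD ARM and 0.410% and 0.396% in HFD SM. In ND these shares were 0.428% and 0.412% in ARM and 0.263% and 0.267% in SM. Levels are given as FPKM (fragments scaled by transcript length and library depth), which corrects for gene length. The HFD and ND tables were normalised separately, so a level set side by side across diets carries that difference too.

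CXC chemokines are small secreted proteins that guide leukocytes along a gradient by binding G-protein-coupled receptors of the Cxcr family. Macrophages produce several of them after inflammatory stimuli, and others are made mainly by stromal, endothelial or lymphoid tissue cells. In fat, chemokines take part in the recruitment of neutrophils, monocytes and lymphocytes during weight gain.

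The labelled cell type was checked against 9 macrophage markers. All 9 were above 0 in every library, and Lyz2, the lysozyme of myeloid cells, was the most abundant. Their summed level was 7637 and 7316 FPKM in HFD ARM, 7826 and 7256 FPKM in HFD SM, 9268 and 9376 FPKM in ND ARM and 9282 and 9315 FPKM in ND SM. Most of each sum was Lyz2, at 4339 to 6136 FPKM. By edgeR and by DESeq2 0 of the 9 genes passed in either diet. In HFD 4 of the 9 had an unadjusted p under 0.05 and 1 an adjusted p under 0.05, the scavenger receptor Cd163 at -0.39 (SE 0.08, adjusted p = 0.0107), with ARM below SM, and in ND these counts were 1 and 0. In these bulk libraries a change in the share of a cell type and a change in RNA per cell cannot be told apart. Only ARM went through the shaking with beads, so for every ARM to SM difference the population and its isolation cannot be told apart either.

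A gene passed the test when its fold change between ARM and SM was over 1.5 and its adjusted p was under 0.05. Tests used the quasi-likelihood method of edgeR, and p was adjusted by Benjamini-Hochberg over all genes tested in that diet. In HFD, 3 of the 9 ligands passed, all higher in ARM, against 4.75% of the 13337 genes tested. At any fold change, 6 of the 9 had an adjusted p under 0.05 in HFD, against 9.55% of all genes. In ND, 7 of the 9 passed, all higher in ARM, against 3.68% of the 12441 genes tested. At any fold change the ND count was also 7 of 9, against 4.73%. The ARM and SM libraries did not overlap for 8 of 9 ligands in HFD, where this held for 52.7% of all genes, and for 8 of 9 in ND, where it held for 44.5%. In both diets 7 of these lay higher in ARM, Cxcl12 lay lower, and Cxcl13 overlapped. The median log2 fold change of the 9 ligands was 0.51 in HFD and 0.72 in ND, beside medians of -0.01 and -0.02 over all genes tested. All 7 calls of ND were lost with limma on log2(FPKM + 0.1), which called 55 of all 10804 genes it tested in ND. With limma on log2(FPKM + 1) without a filter, these 7 and the 3 of HFD were lost. That setting called 0 of all 16428 genes in ND and 35 of 17722 in HFD, so the loss was not particular to the ligands.

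By FPKM the ligands spanned over 3 orders of magnitude. Cxcl2 was the highest in every library, with a mean of 3737 FPKM in HFD ARM, 2899 FPKM in HFD SM, 3254 FPKM in ND ARM and 2025 FPKM in ND SM. It ranked between 8 and 11 among all 17740 genes of the HFD libraries, and between 7 and 23 among the 16436 genes of the ND libraries. Cxcl2 alone made up 76.1% to 79.1% of the summed FPKM of the 9 ligands in HFD and 71.8% to 75.2% in ND. In both HFD groups the FPKM order was Cxcl2, Cxcl1, Cxcl10, Cxcl16, Cxcl12, Cxcl3, Cxcl13, Cxcl9 and Cxcl14, and the libraries of neighbours in that order did not overlap. In ND ARM the order was Cxcl2, Cxcl1, Cxcl10, Cxcl3, Cxcl16, Cxcl12, Cxcl13, Cxcl9 and Cxcl14, where Cxcl10 (mean 174 FPKM) and Cxcl3 (mean 141 FPKM) overlapped. In ND SM, Cxcl3 (mean 64.8 FPKM) and Cxcl12 (mean 62.3 FPKM) overlapped, and both lay above Cxcl16 (mean 46.6 FPKM). Cxcl14 was the lowest in all 4 groups, with means of 1.85, 0.625, 1.58 and 0.570 FPKM in HFD ARM, HFD SM, ND ARM and ND SM.

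**Figure D1:**
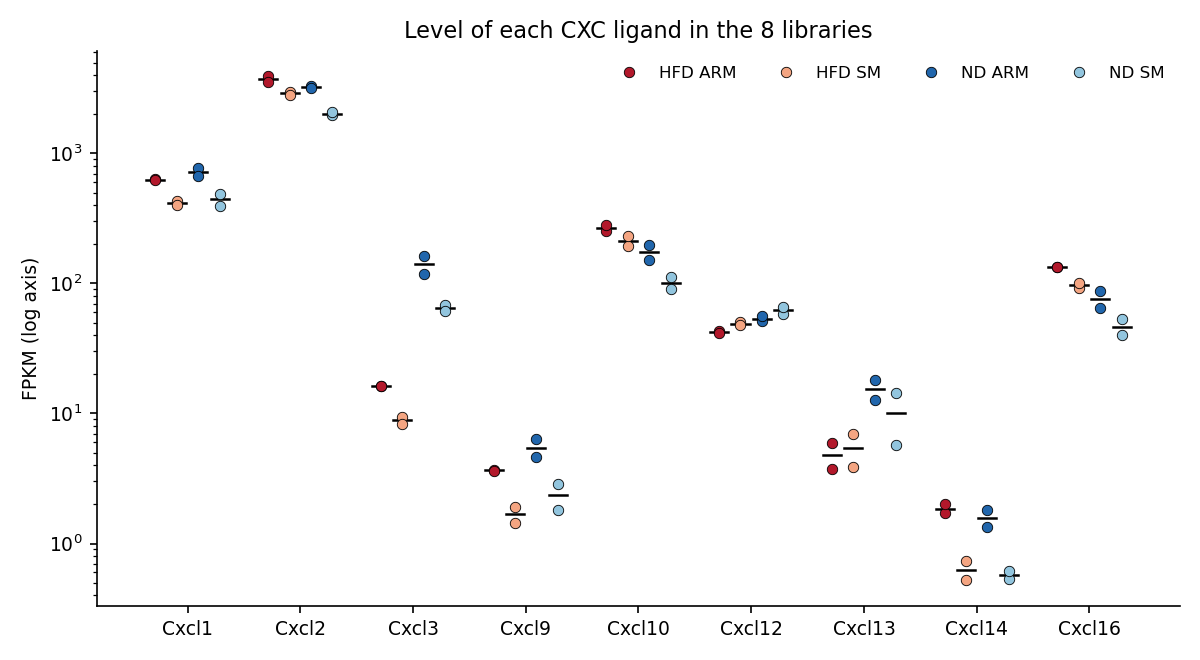
FPKM on a log axis (vertical) of the 9 CXC ligands (horizontal) in the 2 libraries of each of the 4 groups, with a bar at each group mean. Cxcl2 lay highest and Cxcl14 lowest in every group, and Cxcl3 lay lower in the HFD table (8.27 to 16.2 FPKM) than in the ND table (61.5 to 163 FPKM).

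Cxcl1, Cxcl2 and Cxcl3 recruit neutrophils through Cxcr2. They lie in a single cluster on chromosome 5, with 10.8 kb between Cxcl1 and Cxcl2 and 101.6 kb between Cxcl3 and Cxcl1, where Cxcl15 lies between them. RefSeq promoter sequences (build GRCm38.p6) matched 8 of the 9 ligands, and the 250 bases upstream of the start are shown for the 6 of them that passed the test in at least 1 diet. Searched on both strands were the kappaB consensus, the interferon gamma activated site (GAS, TTCNNNGAA), the interferon-stimulated response element (ISRE, GAAANNGAAA), AP-1 (TGANTCA) and the TATA box (TATAAA), and capitals mark every match. Starts are those of the promoter set and differ from the gene spans behind the distances for some genes, so that the last bases printed for Cxcl1 and Cxcl2 lie inside those spans. The promoters below are those of Cxcl1 (chr5:90890995-90891244, plus strand), Cxcl2 (chr5:90903649-90903898, plus strand) and Cxcl3 (chr5:90785851-90786100, plus strand).
Cxcl1: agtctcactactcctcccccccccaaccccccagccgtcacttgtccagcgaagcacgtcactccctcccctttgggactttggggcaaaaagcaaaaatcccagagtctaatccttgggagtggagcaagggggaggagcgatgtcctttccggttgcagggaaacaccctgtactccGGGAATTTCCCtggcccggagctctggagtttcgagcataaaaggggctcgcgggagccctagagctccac
Cxcl2: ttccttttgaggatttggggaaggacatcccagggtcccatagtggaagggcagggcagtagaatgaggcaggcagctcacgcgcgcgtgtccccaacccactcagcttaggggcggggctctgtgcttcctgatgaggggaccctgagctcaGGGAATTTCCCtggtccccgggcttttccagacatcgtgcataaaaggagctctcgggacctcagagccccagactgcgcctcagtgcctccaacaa
Cxcl3: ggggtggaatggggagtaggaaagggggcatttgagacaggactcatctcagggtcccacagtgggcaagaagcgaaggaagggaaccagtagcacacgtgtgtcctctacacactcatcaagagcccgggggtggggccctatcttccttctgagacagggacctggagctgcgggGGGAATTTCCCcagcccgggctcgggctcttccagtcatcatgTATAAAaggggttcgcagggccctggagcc
All 3 held the same run of 11 bases, GGGAATTTCCC, in which a kappaB match on each strand overlapped. It began 71 bases upstream of the start in Cxcl1, 97 in Cxcl2 and 73 in Cxcl3. This run occurred in 14 of 32851 promoters of the same length (0.0426%), and any kappaB match in 1281 of them (3.9%). The run was taken from these 3 promoters, which are among the 14, so the count is no independent measure of its rarity. The Cxcl3 promoter also held a TATA box, as did 12.4% of all promoters. A match describes the letters only and was not tested for binding.

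Cxcl2 stood at 3942 and 3533 FPKM in HFD ARM and at 2972 and 2826 FPKM in HFD SM. The ND levels were 3329 and 3179 FPKM in ARM and 1979 and 2070.45 FPKM in SM. ARM and SM libraries did not overlap in either diet, with ARM higher, and the gap was wider in ND. Its log2 fold change came to 0.34 (SE 0.07, adjusted p = 0.0146) in HFD, under the fold threshold, and 0.68 (SE 0.10, adjusted p = 0.000762) in ND, which passed.

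For Cxcl1, the HFD libraries held 633 and 626 FPKM in ARM and 429 and 399 FPKM in SM. The ND libraries held 779 and 673 FPKM in ARM and 489 and 396 FPKM in SM. Again every ARM library lay above every SM library of its diet. This gave a log2 fold change of 0.58 (SE 0.06, adjusted p = 0.000389) in HFD, a fold change of 1.49 that fell just short of the threshold, and 0.71 (SE 0.12, adjusted p = 0.00177) in ND. Cxcl1 passed in HFD at 0.60 without HFD ARM replicate 2, at 0.63 without HFD SM replicate 1 and in 4 of the 10 settings that kept all libraries. It missed the fold threshold in ND at 0.57 without ND SM replicate 2.

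Cxcl3 was at 16.2 FPKM in each HFD ARM library and at 9.46 and 8.27 FPKM in HFD SM. Its ND levels were 119 and 163 FPKM in ARM and 68.2 and 61.5 FPKM in SM. ARM lay above SM without overlap in both diets, and every HFD value lay below every ND value. The test gave log2 fold changes of 0.85 (SE 0.11, adjusted p = 0.00117) in HFD and 1.12 (SE 0.13, adjusted p = 0.000212) in ND, and both passed. Cxcl2 and Cxcl3 transcripts share 126 stretches of 50 bases, which is 5.8% of those in Cxcl2, so the split of reads between the pair is uncertain. In the HFD libraries Cxcl2 held 57120 to 77277 expected counts and Cxcl3 held 157 to 299. Reads moved between the pair would thus weigh more on Cxcl3, and this was not tested. The summed FPKM of Cxcl1, Cxcl2 and Cxcl3 was 4591 and 4175 in HFD ARM against 3410 and 3233 in HFD SM, and 4227 and 4014 in ND ARM against 2536 and 2527 in ND SM.

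Cxcl9 and Cxcl10 are induced by interferons and attract activated T cells and NK cells through Cxcr3. They are neighbours on chromosome 5, 18.6 kb apart with no protein-coding gene between them. Their upstream sequences are shown for Cxcl9 (chr5:92328080-92328329, minus strand) and Cxcl10 (chr5:92348890-92349139, minus strand), with motif matches in capitals.
Cxcl9: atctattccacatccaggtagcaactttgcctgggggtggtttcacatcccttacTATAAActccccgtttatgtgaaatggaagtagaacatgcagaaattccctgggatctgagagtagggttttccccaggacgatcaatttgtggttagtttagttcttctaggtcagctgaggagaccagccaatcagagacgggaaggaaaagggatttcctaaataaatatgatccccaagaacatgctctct
Cxcl10: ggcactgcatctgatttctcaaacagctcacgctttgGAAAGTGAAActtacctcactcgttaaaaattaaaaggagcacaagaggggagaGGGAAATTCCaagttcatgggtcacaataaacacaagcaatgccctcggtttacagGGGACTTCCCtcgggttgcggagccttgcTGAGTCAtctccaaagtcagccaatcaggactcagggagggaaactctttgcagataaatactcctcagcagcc
The Cxcl10 promoter held an ISRE that began 213 bases upstream, kappaB matches that began 159 and 103 bases upstream, and an AP-1 match that began 74 bases upstream. An ISRE occurred in 2.98% of all promoters and an AP-1 match in 6.75%. The Cxcl9 window held only a TATA box, 195 bases upstream.

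Cxcl10 was at 255 and 281 FPKM in HFD ARM and at 193 and 232 FPKM in HFD SM. In ND its levels were 197 and 151 FPKM in ARM and 112 and 90.0 FPKM in SM. ARM lay above SM without overlap in both diets, by a narrow margin in HFD. Cxcl10 had a log2 fold change of 0.31 (SE 0.09, adjusted p = 0.0536) in HFD, which did not pass, and 0.78 (SE 0.13, adjusted p = 0.00182) in ND, which passed. The ND call was lost with limma on log2(FPKM + 1) (0.78), and the HFD value came to 0.18 without HFD SM replicate 1. Cxcl10 overlaps Art3 on the opposite strand, and 3.6% of its stretches of 50 bases are shared, so reads of the overlap cannot be assigned without strand.

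The level of Cxcl9 was far lower, at 3.68 and 3.64 FPKM in HFD ARM and at 1.43 and 1.92 FPKM in HFD SM. In ND it reached 4.59 and 6.31 FPKM in ARM and 1.81 and 2.89 FPKM in SM. These levels rested on 79.5 to 198 expected counts in the HFD libraries and on 74 to 252 in ND. Groups did not overlap in either diet. Cxcl9 passed in both, with a log2 fold change of 1.10 (SE 0.16, adjusted p = 0.00209) in HFD and 1.21 (SE 0.22, adjusted p = 0.00371) in ND. The call was lost in HFD without HFD ARM replicate 2 (1.12) and with no filter on low counts, and in ND without ND ARM replicate 2 (0.95).

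Cxcl16 is made as a membrane-bound protein that captures oxidised lipoprotein, and its shed form attracts Cxcr6-bearing T cells. It was at 134 FPKM in each HFD ARM library and at 92.8 and 101 FPKM in HFD SM. The ND table gave 65.1 and 86.9 FPKM in ARM and 40.4 and 52.9 FPKM in SM. The groups did not overlap in either diet, and replicates lay closer together in HFD than in ND. The log2 fold change was 0.51 (SE 0.06, adjusted p = 0.000912) in HFD, a fold change of 1.42 and so under the threshold. It was 0.72 (SE 0.15, adjusted p = 0.00925) in ND, where the call was lost without ND ARM replicate 2 (0.49), without ND SM replicate 1 (0.51), with DESeq2 (0.73) and with limma on log2(FPKM + 1) (0.69). Of its stretches of 50 bases, 16.9% lie in Zmynd15 on the opposite strand, and the share of its reads from there was not tested.

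Cxcl14 is a chemokine without an agreed receptor that is expressed in many epithelia and in connective tissue. Its promoter (chr13:56296552-56296801, minus strand) is shown as that of a ligand that passed in both diets.
Cxcl14: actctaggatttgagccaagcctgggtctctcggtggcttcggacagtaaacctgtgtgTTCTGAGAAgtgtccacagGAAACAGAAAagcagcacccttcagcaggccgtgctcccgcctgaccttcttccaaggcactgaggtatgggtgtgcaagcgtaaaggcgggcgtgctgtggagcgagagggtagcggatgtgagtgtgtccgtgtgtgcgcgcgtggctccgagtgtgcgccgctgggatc
Capitals mark a GAS match that began 191 bases upstream, as found in 7.02% of all promoters, and an ISRE that began 172 bases upstream. Its level was 1.71 and 2.0 FPKM in HFD ARM and 0.73 and 0.52 FPKM in HFD SM, from 54, 66, 25 and 18 counts. In ND it was 1.33 and 1.82 FPKM in ARM and 0.53 and 0.61 FPKM in SM, from 36, 41, 13 and 16 counts. ARM lay above SM in both diets without overlap, at low counts. The log2 fold change was 1.498 (SE 0.28, adjusted p = 0.00831) in HFD and 1.41 (SE 0.37, adjusted p = 0.0407) in ND, and both passed. The HFD call was lost without HFD ARM replicate 1 (1.63) or replicate 2 (1.36) and with no filter on low counts. The ND call was lost without ND ARM replicate 2 (1.21), ND SM replicate 1 (1.30) or ND SM replicate 2 (1.52) and with DESeq2 (1.42). With limma on log2(FPKM + 1) the values were 0.81 in HFD and 0.71 in ND.

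Cxcl12, a constitutive chemokine of stromal cells that binds Cxcr4 and Ackr3, was the only ligand with lower values in ARM in both diets. It was at 43.0 and 41.5 FPKM in HFD ARM and at 50.2 and 47.8 FPKM in HFD SM. On chow the levels were 51.0 and 56.3 FPKM in ARM and 58.7 and 65.9 FPKM in SM. The groups did not overlap, but the gap was small in both diets. Its log2 fold change came to -0.21 (SE 0.07, adjusted p = 0.0794) in HFD and -0.23 (SE 0.10, adjusted p = 0.281) in ND, and neither passed. The ND value came to -0.14 without ND SM replicate 2.

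Cxcl13 draws B cells through Cxcr5. It was at 5.93 and 3.72 FPKM in HFD ARM and at 6.97 and 3.91 FPKM in HFD SM. On chow it reached 12.7 and 18.2 FPKM in ARM and 5.77 and 14.4 FPKM in SM. Its replicates differed more than those of the other ligands, and ARM and SM overlapped in both diets. The log2 fold change was -0.20 (SE 0.28, adjusted p = 0.742) in HFD and 0.60 (SE 0.29, adjusted p = 0.354) in ND. The HFD value turned positive without HFD ARM replicate 2 (0.11) and without HFD SM replicate 1 (0.28). The ND value passed without ND SM replicate 2 (1.41), the SM library with the higher level, and with no filter on low counts (0.59), while it came to 0.08 without ND SM replicate 1.

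**Figure D2:**
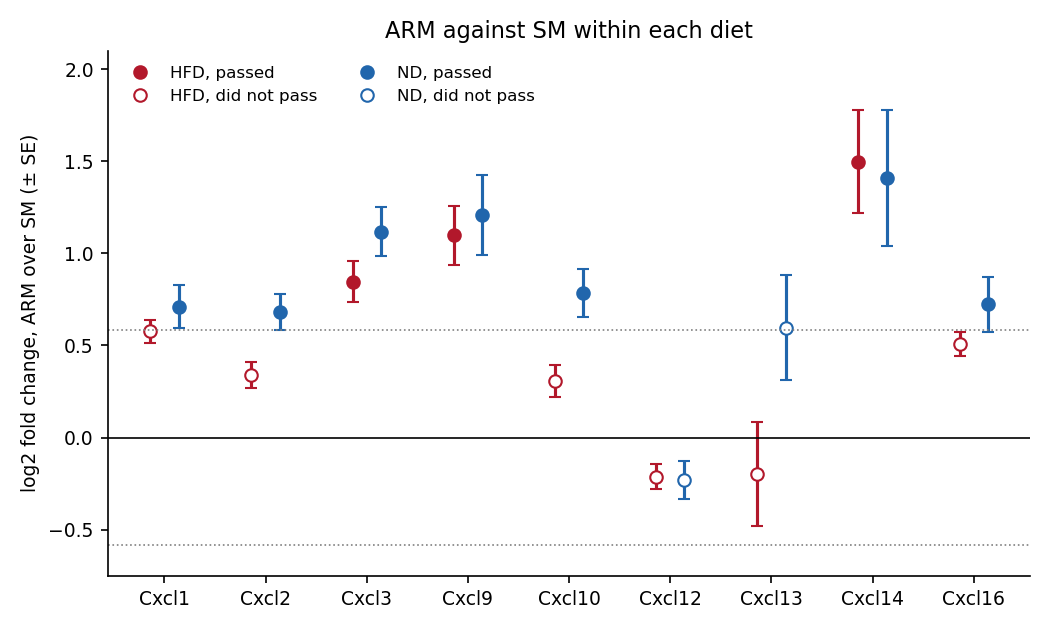
Log2 fold change of ARM over SM (vertical, bars are the SE) for the 9 ligands (horizontal) in HFD and ND, each from 2 libraries a group, with filled points for those that passed and dotted lines at a fold change of 1.5. Cxcl3, Cxcl9 and Cxcl14 were filled in both diets, and Cxcl1, Cxcl2, Cxcl10 and Cxcl16 in ND.

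A call in 1 diet does not show a difference between diets, so the difference was tested in a single fit of all 8 libraries. By edgeR's quasi-likelihood test 0 of the 9 ligands had an adjusted p under 0.05 for the difference, against 0.165% of the 13358 genes tested, and DESeq2 also gave 0. Unadjusted, 2 of the 9 had a p under 0.05, as did 1017 of all 13358 genes. These were Cxcl2, with a log2 difference (HFD minus ND) of -0.36 (SE 0.12, adjusted p = 0.356), and Cxcl10, with -0.50 (SE 0.18, adjusted p = 0.478). The other ligands called only in ND were Cxcl1, at -0.15 (SE 0.14, adjusted p = 0.917), and Cxcl16, at -0.23 (SE 0.20, adjusted p = 0.893). Over the rest the difference lay between -0.81 (Cxcl13, SE 0.52) and 0.08 (Cxcl14, SE 0.46). Of the 9 differences 2 were above 0, beside 44.6% over all genes. With a library left out the Cxcl10 difference ranged from -0.65 (without ND ARM replicate 2) to -0.26 (without ND ARM replicate 1), and that of Cxcl13 from -1.61 (without ND SM replicate 2) to -0.27 (without ND SM replicate 1). The Cxcl3 difference, -0.29 (SE 0.20), came to -0.47 without ND ARM replicate 1 and -0.03 without ND ARM replicate 2.

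The levels of HFD and ND were set side by side as values without a test, because diet cannot be told apart from table. Cxcl3 differed most. Its HFD mean over its ND mean gave a log2 ratio of -3.12 in ARM and -2.87 in SM by FPKM, -3.09 and -2.80 by TPM (transcript share of a library) and -2.93 and -2.67 by CPM (counts scaled to library depth over all 8 libraries). Of 12343 genes tested in both diets and above 0 FPKM in ARM of each, 0 had a lower ratio than Cxcl3, and in SM 5 of 12342 did. The median ratio over all genes was -0.12 in ARM and -0.15 in SM by FPKM. Its counts were not whole numbers in 4 of 4 HFD libraries and were whole in all 4 ND libraries. Over all genes listed, 32.3% to 32.9% of counts in the HFD libraries were not whole, against 8.55% to 9.36% in ND. The transcript length implied by its counts and FPKM was 998 bases in HFD and 868 bases in ND, a ratio of 1.15 beside 1.16 for Cxcl1, 1.14 for Cxcl2 and a median of 1.06 over 11759 genes. The part of this processing in the Cxcl3 ratio was not tested.

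Cxcl16 and Cxcl10 were higher in the HFD table in both cell types without overlap. The FPKM log2 ratio of Cxcl16 was 0.82 in ARM and 1.06 in SM, and that of Cxcl10 was 0.62 in ARM and 1.07 in SM. Cxcl2 gave 0.20 in ARM and 0.52 in SM by FPKM, also without overlap, and 0.37 and 0.71 by CPM. Cxcl12 was lower in HFD, at -0.34 in ARM and -0.35 in SM. Cxcl13 was at -1.68 in ARM without overlap, while its SM libraries overlapped at -0.89. Cxcl9 was at -0.57 in ARM and at -0.49 in SM, where the libraries overlapped. Cxcl1 was at -0.21 in ARM and -0.10 in SM by FPKM but at -0.01 and 0.12 by CPM, so its direction in SM depended on the scale. The libraries of the 2 diets overlapped for Cxcl14 in ARM (0.24) and in SM (0.13). Counts of Cxcl2, Cxcl9 and Cxcl16 were likewise not whole in 4 of 4 HFD libraries, and in ND this held for Cxcl16.

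**Figure D3:**
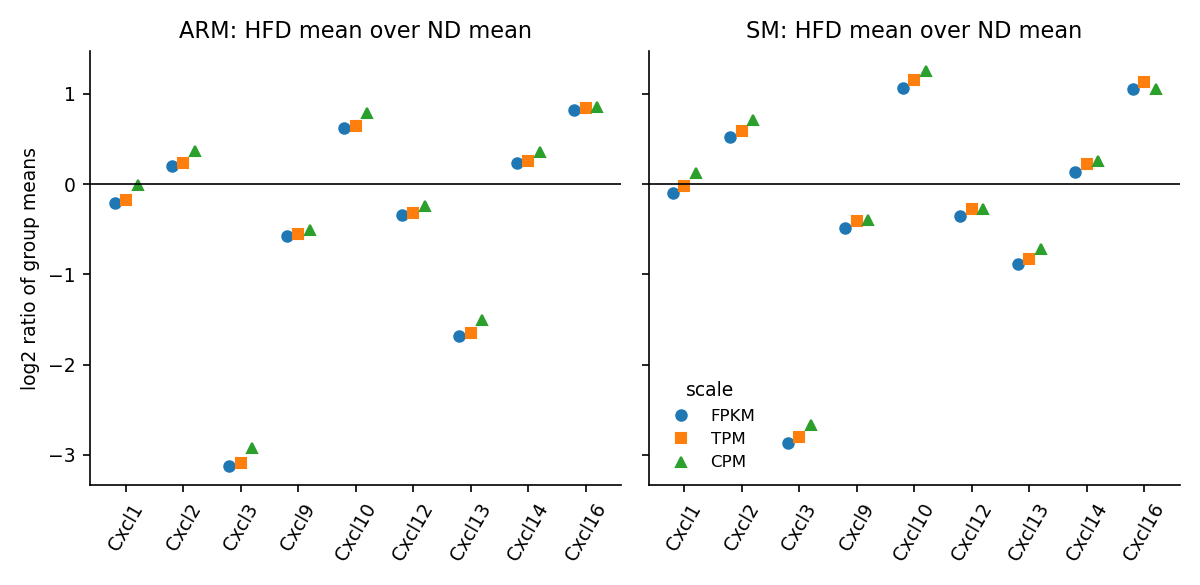
Log2 ratio of the HFD mean over the ND mean (vertical) of each ligand (horizontal) in ARM and SM on the FPKM, TPM and CPM scales, from 2 libraries a group and without error bars. Cxcl3 lay lowest on all 3 scales, from -3.12 to -2.67, and Cxcl1 in SM was at -0.10 by FPKM and 0.12 by CPM.

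The other CXC ligands were given by a list of 6 genes. Pf4, the platelet factor also made by resident macrophages, was at 754 to 899 FPKM in HFD and at 1040 to 1333 FPKM in ND, second to Cxcl2 among CXC ligands by FPKM. Its log2 fold change was -0.01 (SE 0.08, adjusted p = 0.982) in HFD and -0.23 (SE 0.10, adjusted p = 0.264) in ND. Ppbp, also a platelet chemokine, was at 3.46 to 5.69 FPKM over the 8 libraries, with -0.04 (SE 0.20) in HFD and -0.26 (SE 0.24) in ND. Cxcl5 was at 0.09 to 0.69 FPKM, Cxcl17 at 0 to 0.11 FPKM and Cxcl15 at 0.02 to 0.07 FPKM in HFD, all too low to be tested, and Cxcl11 was not analysed here. Thus 0 of the 2 tested genes of this list passed in either diet, by edgeR or by DESeq2, with 0 at an unadjusted p under 0.05 in HFD and 1 in ND. Their median log2 fold change was -0.02 in HFD and -0.25 in ND.

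Of the 8 CXC receptors, 6 could be tested in HFD and 5 in ND. Cxcr4, the signalling receptor of Cxcl12, was the most abundant at 193 to 233 FPKM in HFD and 100.5 to 109 FPKM in ND. Its log2 fold change was -0.20 (SE 0.06, adjusted p = 0.0796) in HFD and -0.05 (SE 0.09, adjusted p = 0.872) in ND. Ackr3, which takes up Cxcl12 without G-protein signalling, was at 6.48 and 5.86 FPKM in HFD ARM and 5.26 and 4.28 FPKM in HFD SM. In ND it was at 4.67 and 6.62 FPKM in ARM and at 1.64 and 1.72 FPKM in SM, so ND SM stood lowest. Ackr3 was the only receptor to pass, in ND at 1.74 (SE 0.23, adjusted p = 0.000326), and its HFD value was 0.34 (SE 0.13, adjusted p = 0.138). The difference between diets was -1.41 (SE 0.27, adjusted p = 0.0618) and did not pass in this fit but was called in 4 of 12 alternatives.

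Cxcr2, the receptor of Cxcl1, Cxcl2 and Cxcl3, was at 2.27 to 3.07 FPKM in HFD and 0.19 to 0.72 FPKM in ND. Cxcr2 had a log2 fold change of 0.275 (SE 0.14, adjusted p = 0.283) in HFD and -0.72 (SE 0.455, adjusted p = 0.537) in ND. The difference between diets was 0.99 (SE 0.45, adjusted p = 0.643). Cxcr3, the receptor of Cxcl9 and Cxcl10, was at 4.65 to 6.53 FPKM in HFD and 9.79 to 12.4 FPKM in ND. Its log2 fold change was -0.39 (SE 0.13, adjusted p = 0.0934) in HFD and -0.16 (SE 0.15, adjusted p = 0.710) in ND. Cxcr5, the receptor of Cxcl13, was at 0.12 to 0.46 FPKM and Cxcr6, the receptor of Cxcl16, at 0.03 to 0.23 FPKM over the 8 libraries. For Cxcr5 the log2 fold change was 0.13 (SE 0.41, adjusted p = 0.897) in HFD and -1.08 (SE 0.53, adjusted p = 0.371) in ND. Cxcr1 was at 0 to 0.11 FPKM and the scavenger receptor Ackr1 at 0.12 to 1.05 FPKM. The receptors had 0 of 6 passing in HFD, with 3 at an unadjusted p under 0.05 and 0 by DESeq2, and a median log2 fold change of 0.20. In ND 1 of 5 passed, with a median of -0.16.

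The 3 ligand proteases were Adam10 and Adam17, which shed membrane-bound Cxcl16, and Dpp4, which trims the amino end of several CXC ligands. Adam10 was at 34.7 to 46.9 FPKM, Adam17 at 36.0 to 46.9 FPKM and Dpp4 at 0.97 to 2.24 FPKM over the 8 libraries. None of the 3 passed in either diet by edgeR's test, and DESeq2 also called 0 of 3 in each, with 0 at an unadjusted p under 0.05 in HFD and 1 in ND. The median log2 fold change was -0.09 in HFD and 0.15 in ND. Dpp4 had the largest value, 0.63 (SE 0.25, adjusted p = 0.229) in ND, where its ARM and SM libraries overlapped. It passed without ND ARM replicate 1 (0.96) and came to 0.22 without ND ARM replicate 2.

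Genes induced through NF-kB, the factor that reads the kappaB consensus, were described by a list of 14. In HFD 0 of the 14 passed by edgeR or DESeq2, with 5 at an adjusted p under 0.05 at any fold, of which 3 lay higher and 2 lower in ARM. At an unadjusted p under 0.05 stood 8, beside 3089 of all 13337 genes. Their median log2 fold change was 0.06. In ND 2 of the 14 passed, Ptgs2 and Tnf, both higher in ARM, and the median was 0.22. The ND list had 3 genes at an adjusted p under 0.05 and 5 at an unadjusted p under 0.05, beside 1858 of all 12441 genes. Ptgs2, the inducible cyclooxygenase, was at 21.4 and 25.5 FPKM in ND ARM and at 14.1 and 15.9 FPKM in ND SM, a log2 fold change of 0.65 (SE 0.11, adjusted p = 0.00262).

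Tnf, a cytokine that induces Cxcl1, Cxcl2 and Cxcl10, was at 797 and 859 FPKM in HFD ARM and at 573 and 620.4 FPKM in HFD SM. In ND it was at 587 and 584 FPKM in ARM and at 409 and 369 FPKM in SM. ARM lay above SM in both diets without overlap. The log2 fold change was 0.44 (SE 0.07, adjusted p = 0.00221) in HFD, under the fold threshold, and 0.59 (SE 0.10, adjusted p = 0.00217) in ND, just above it. The difference between diets was -0.16 (SE 0.11, adjusted p = 0.840) for Tnf and -0.33 (SE 0.18, adjusted p = 0.740) for Ptgs2. The ND call of Tnf was lost without ND ARM replicate 2 (0.58) and without ND SM replicate 2 (0.52), and it was made in 8 of 14 alternatives. That of Ptgs2 was lost without ND ARM replicate 2 (0.51) and without ND SM replicate 1 (0.56), and it was made in 9 of 14. Il1b, another such cytokine, gave 0.52 (SE 0.14, adjusted p = 0.0419) in HFD and 0.21 (SE 0.16, adjusted p = 0.635) in ND, where the groups overlapped. The HFD value came to 0.28 without HFD ARM replicate 2 and passed without HFD ARM replicate 1 (0.73) or HFD SM replicate 2 (0.68).

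Of 13 interferon gamma response genes, 1 passed in HFD and 0 in ND, with medians of 0.12 and -0.04. In HFD 2 genes had an adjusted p under 0.05 at any fold, 1 of them lower in ARM, and 7 had an unadjusted p under 0.05. The ND counts were 1 and 4, with 0 called by DESeq2. The gene that passed was Cd274, which encodes the checkpoint ligand PD-L1, at 11.97 and 12.9 FPKM in HFD ARM and 7.80 and 7.97 FPKM in HFD SM. Its log2 fold change was 0.63 (SE 0.07, adjusted p = 0.000569) in HFD and 0.45 (SE 0.15, adjusted p = 0.103) in ND, a difference of 0.16 (SE 0.18, adjusted p = 0.933). In ND it passed without ND ARM replicate 1 (0.63) or ND SM replicate 2 (0.62) and came to 0.25 without ND ARM replicate 2. Irf1, a transcription factor induced by interferon gamma, gave -0.22 (SE 0.07, adjusted p = 0.0974) in HFD and -0.36 (SE 0.09, adjusted p = 0.0420) in ND, under the fold threshold. Of 10 type I interferon response genes, 9 could be tested, and 0 passed in either diet by edgeR or DESeq2. At an adjusted p under 0.05 at any fold stood 1 of them in HFD, higher in ARM, and 0 in ND. At an unadjusted p under 0.05 stood 2 of them in HFD and 1 in ND, and the medians were -0.04 and 0.01.

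**Figure D4:**
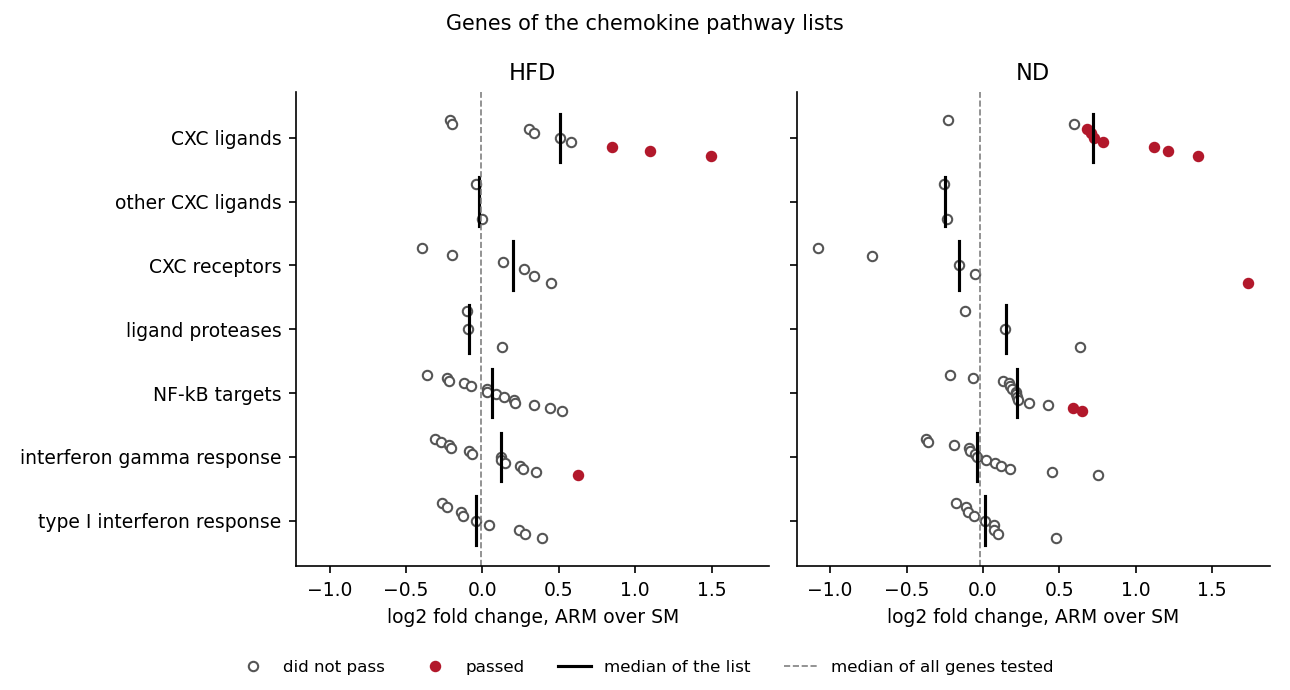
Log2 fold change of ARM over SM (horizontal) of each tested gene in 7 lists (vertical) in HFD and ND, with filled points for genes that passed, a black bar at the median of each list and a dashed line at the median of all genes tested. The median of the CXC ligands was 0.51 in HFD and 0.72 in ND, and the medians of the other 6 lists drawn lay between -0.25 and 0.22.

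Genes with a pattern near that of a ligand were sought for the 7 ligands with a mean of at least 5 CPM and an ARM minus SM difference of at least 0.58 (log2) in at least 1 diet. The measure was the root-mean-square difference in log2 CPM, centred within each diet, over 8 libraries and among 9773 genes. Nearest to Cxcl2 were Srxn1 (0.05), Cflar (0.06) and Zc3h12c (0.07), and nearest to Cxcl1 were Ch25h (0.08), Perm1 (0.10) and Clec4e (0.11). For Cxcl10 the nearest were Cyren (0.10), Plau (0.10) and again Ch25h (0.11). Cxcl3 was followed most closely by Ltbp1 (0.10), Creb3l1 (0.12) and Postn (0.12), and Cxcl9 by Col6a5 (0.08), Angptl2 (0.10) and Adamts5 (0.11). Beside Cxcl16 stood Slc44a2 (0.06), Cd276 (0.07) and Tle1 (0.08). Cxcl13 had no gene as close, with Dpp4 (0.25), Armcx2 (0.26) and Slc10a6 (0.30) nearest. The ligands' own root-mean-square deviation from their diet means was 0.27 for Cxcl2 and 0.63 for Cxcl9.

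Markers of other cell types were measured in the same libraries, and several lists moved with ARM. The 7 adipocyte markers summed to 102 and 112 FPKM in HFD ARM, 35.6 and 34.8 FPKM in HFD SM, 58.3 and 99.9 FPKM in ND ARM and 33.0 and 43.0 FPKM in ND SM. Of these 7, 6 passed in HFD and 5 in ND, all higher in ARM, and DESeq2 called 6 and 4. Cav1, which other cell types also express and which the study uses as a marker of ARM, or Lipe was the most abundant. The 8 fibroblast and progenitor markers, led by the matrix gene Dcn, summed to 155 and 189 FPKM in HFD ARM, 114 and 103 FPKM in HFD SM, 205 and 297 FPKM in ND ARM and 73.4 and 101 FPKM in ND SM. Of the 8, 4 passed in HFD and 6 in ND, and DESeq2 called 3 and 6. In HFD 6 of the 8 log2 fold changes were above 0, and in ND all 8 were. The exceptions in HFD were Pi16, at -0.445 (SE 0.18, adjusted p = 0.157) without overlap, and Dpp4, at -0.09 (SE 0.22) with overlap. The 7 vascular endothelial markers, led by Cdh5 or Cldn5, summed to 45.6 and 43.7 FPKM in HFD ARM, 18.5 and 12.7 FPKM in HFD SM, 11.5 and 25.8 FPKM in ND ARM and 9.03 and 10.6 FPKM in ND SM. Of the 7, 6 passed in HFD and 1 in ND, and DESeq2 called 6 and 0. The median log2 fold change was 2.51 in HFD and 1.31 in ND for the adipocyte list, 0.60 and 1.43 for the fibroblast list and 1.42 and 0.78 for the vascular endothelial list. All genes of these 3 lists were above 0 in every library.

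The 6 mesothelial markers, led by Upk3b or Krt19, summed to 16.3 and 11.4 FPKM in HFD ARM and 14.2 and 7.17 FPKM in HFD SM. In ND they summed to 17.4 and 22.2 FPKM in ARM and 5.11 and 6.62 FPKM in SM, and 5 of the 6 passed there (4 by DESeq2) against 0 in HFD, where 1 was at an unadjusted p under 0.05 and DESeq2 called 0. The 6 pericyte and smooth muscle markers, led by Rgs5 or Acta2, summed to 23.3 and 21.4 FPKM in HFD ARM, 14.1 and 8.81 FPKM in HFD SM, 5.82 and 8.64 FPKM in ND ARM and 5.23 and 4.31 FPKM in ND SM. Of the 6, 2 passed in HFD and 1 in ND, also by DESeq2. The 5 lymphatic endothelial markers, led by Ccl21a or Prox1, summed to 4.93 and 6.30 FPKM in HFD ARM, 1.29 and 4.0 FPKM in HFD SM, 4.44 and 4.81 FPKM in ND ARM and 0.27 and 0.79 FPKM in ND SM. In each diet 3 of the 5 passed, against 1 by DESeq2, and Mmrn1, Ccl21a and Reln were at 0 in 1 ND SM library. The 8 markers of lipid-associated macrophages, led by Cd63, summed to 713 and 816 FPKM in HFD ARM, 605 and 561 FPKM in HFD SM, 789 and 837 FPKM in ND ARM and 686 FPKM in each ND SM library. Of these 8, 6 passed in HFD and 4 in ND (5 and 3 by DESeq2), with medians of 0.94 and 0.57. Cd63 itself passed in neither diet, with log2 fold changes of 0.05 (SE 0.08) in HFD and 0.04 (SE 0.10) in ND. Nor did Trem2, at 0.09 (SE 0.08) and -0.002 (SE 0.12), and for both genes ARM and SM overlapped in each diet.

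The 6 neutrophil markers, led by Csf3r or S100a9, summed to 47.9 and 47.3 FPKM in HFD ARM, 39.8 and 39.6 FPKM in HFD SM, 37.0 and 63.5 FPKM in ND ARM and 80.0 and 70.8 FPKM in ND SM. In ND 1 of the 5 tested genes passed, S100a9, which was lower in ARM at -1.43 (SE 0.30, adjusted p = 0.0119). Csf3r went the other way in ND, at 0.38 (SE 0.12, adjusted p = 0.0978), with ARM above SM without overlap. In HFD 0 of the 4 tested genes passed, and all 4 log2 fold changes were above 0. There S100a9 was at 0.88 (SE 0.27, adjusted p = 0.0677). Its difference between diets of 2.29 (SE 0.50, adjusted p = 0.104) was called in 5 of 12 alternatives. Ly6g was at 0 in 5 of the 8 libraries. Of the 6 T and NK cell markers Trbc2 was not analysed here, and the other 5, led by Nkg7, Cd3d or Cd3g, summed to 0.26 to 1.43 FPKM. Ncr1 was at 0 in 5 libraries, Cd3d in 2, and Cd3g and Nkg7 in 1 each. The 5 B cell markers, led by Cd79a or Cd79b, summed to 3.66 to 5.85 FPKM, with Pax5 at 0 in 1 ND ARM library. The 5 dendritic cell markers, led by Zbtb46 or Ccr7, summed to 6.69 to 10.4 FPKM and the 4 mast cell markers, led by Mcpt4, Tpsb2 or Cma1, to 1.83 to 4.51 FPKM. The lists of B, dendritic and mast cells had 0 genes passing in either diet by edgeR or DESeq2. At an unadjusted p under 0.05 stood 1 B cell and 1 dendritic cell gene in HFD and 2 dendritic cell genes in ND. The part of these other cell types in the ligand values of ARM and SM was not tested.

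**Figure D5:**
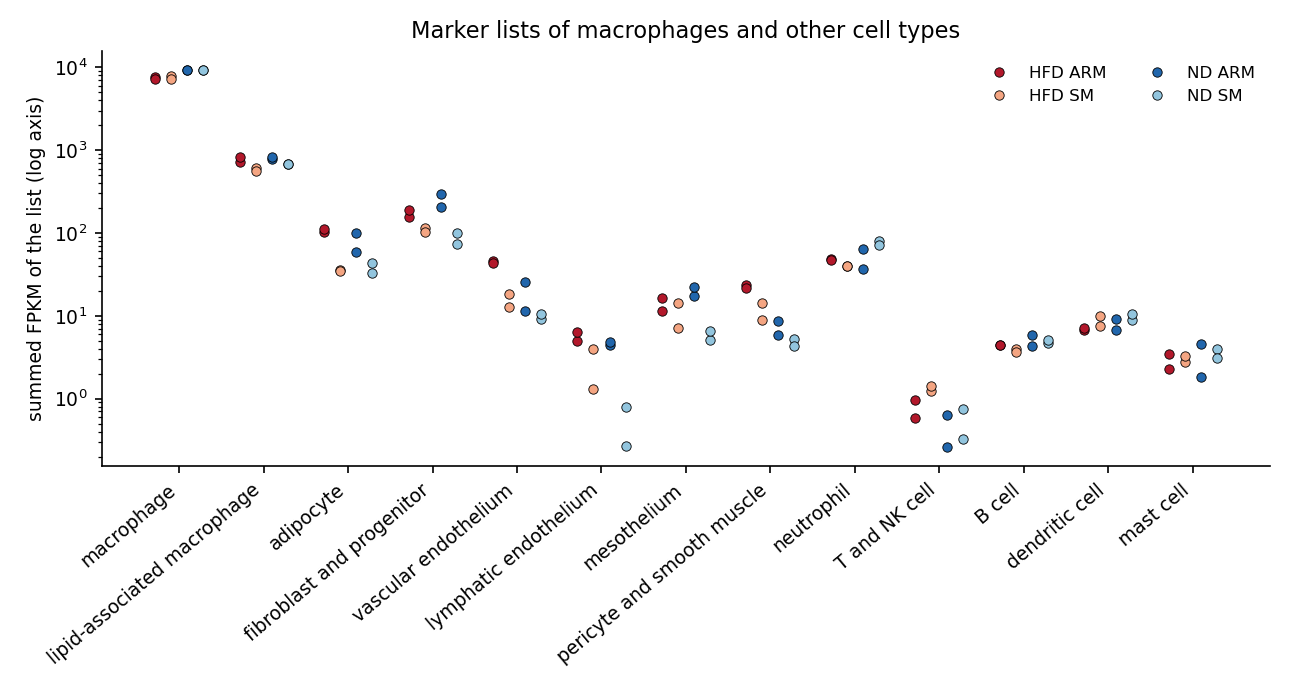
Summed FPKM on a log axis (vertical) of 13 marker lists (horizontal) in each of the 8 libraries. Macrophage markers summed to 7256 to 9376 FPKM in every library, while the adipocyte, fibroblast, vascular and lymphatic endothelial lists lay higher in ARM than in SM within each diet.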

How the data were processed

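RNA-seq of sorted ARM and SM was used, in 8 libraries. The authors deposited a table for each diet with expected counts, FPKM and TPM for each gene and library. The submitters' processing notes name the mm10 genome build, and the aligner and counter are not given in the sources used here. The expected counts deposited by the authors were rounded to whole numbers, genes were filtered with filterByExpr and scaled by TMM, and each diet was fitted by itself with edgeR 4.0.16 (quasi-likelihood test, R 4.3.3). DESeq2 1.42.0 and limma 3.58.1 (on deposited FPKM) were alternatives. Deposited TPM served only for values across diets. The code was tested on simulated data. The SE is the log2 fold change divided by the square root of the F statistic.

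Members were matched by symbol. Of the other genes, all those of the CXC ligand, receptor and protease lists were named, and from each pathway list up to 4 called genes with the largest change in each diet plus Tnf, Il1b and Irf1. Of marker lists the most abundant genes and those at 0 were named. Also named were Cd163, the macrophage marker with an adjusted p under 0.05 in HFD, and Lep, flagged by the test between diets. Trem2 was named because the study uses it to mark lipid-associated macrophages, and Pi16 as a fibroblast marker lower in ARM in HFD. The members and lists were chosen with earlier results of these data known. Symbols turned into dates numbered 26 in HFD and 24 in ND, none of them a listed gene. Sequences came from RefSeq (GRCm38.p6), read with Python 3.11.15. Figures were drawn with matplotlib 3.10.9. Other assays of the study were not used here.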

Additional observations from a re-analysis of the deposited data

Results flagged for a closer look

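Among the genes of the lists, the change from SM to ARM differed between the diets for Lep, the adipocyte hormone leptin, by the test of the difference over all 8 libraries. Its log2 difference (HFD minus ND) was 1.80 (SE 0.31, adjusted p = 0.0380 by the quasi-likelihood method of edgeR, Benjamini-Hochberg). Lep was at 6.49 and 7.77 FPKM in HFD ARM and at 0.80 and 0.96 FPKM in HFD SM. In ND it was at 1.66 and 2.15 FPKM in ARM and at 0.67 and 1.01 FPKM in SM. All ARM libraries lay above the SM libraries of their diet. Leaving out a library in turn gave 1.48 to 2.1, and 2 of these 8 fits called it.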

How the results depend on the processing

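For the 9 ligands, the 10 settings that kept all libraries gave 90 values in each diet. In HFD 81 of the 90 kept their direction and side of the threshold, 5 lost a call and 4 (all for Cxcl1) gained it, and in ND 70 kept them, 18 lost a call and 2 gained it. The direction was kept in all of these. Ligands called in HFD fell from 3 to 1 without a filter on low counts and to 0 with limma on log2(FPKM + 1) without a filter. In ND they fell from 7 to 0 with limma on log2(FPKM + 0.1) and to 0 with limma on log2(FPKM + 1) without a filter, and to 4 without ND ARM replicate 2, within a range of 4 to 7 over the libraries left out.

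Over all genes, 634 were called in HFD and 458 in ND. DESeq2 gave 383 and 267, limma on log2(FPKM + 0.1) 326 and 55, limma on log2(FPKM + 1) 299 and 216, and the latter without a filter 35 and 0. The threshold of the study's methods (absolute log2 fold change over 0.6, unadjusted p under 0.05) gave 1017 and 888. No filter gave 181 in HFD and 627 in ND, where 8 ligands were called. Leaving out a library gave 214 (HFD ARM replicate 2) to 637 in HFD and 188 (ND ARM replicate 2) to 661 in ND. The difference between diets was called for 22 genes, for 93 with DESeq2, for 41 without a filter and for 0 (without ND SM replicate 2) to 102 (without ND ARM replicate 1) with a library left out. The causes were not tested, except that a left-out library leaves its group with a single sample, assumed to vary like the others.

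The replicate numbers share no stated batch. Deviations of same-numbered libraries correlated at -0.028 in HFD and 0.221 in ND, over 2 pairs each. With the replicate block, 786 genes were called in ND and 187 for the difference between diets, where Cxcl10 was then called (-0.49), and Cxcl13 was called in ND.

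With a library left out, the HFD change ranged from -0.59 to 0.28 for Cxcl13, -0.13 to 0.13 for Pf4, -0.22 to 0.16 for Ppbp, -0.03 to 0.32 for Cxcr5 and -0.40 to 0.29 for Dpp4. The ND change ranged from -0.11 to 0.01 for Cxcr4 and -0.20 to 0.53 for Il1b. The difference between diets ranged from -0.27 to 0.01 for Cxcl1, -0.49 to 0.21 for Cxcl9, -0.14 to 0.33 for Cxcl14 and -0.46 to 0.02 for Cxcl16. Pf4 in HFD turned to 0.02 with library totals and to 0.03 with limma in each of its 3 versions. Of the 36 ratios between diets on TPM or CPM, 29 moved from the FPKM ratio by less than the spread between replicates and 7 by more.

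Depth limited Cxcl14 most, with 13 to 66 counts in a library.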
